A study of Homo sapiens with 4 samples.

Results

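The CCN genes and the thrombospondin genes, 9 of the 31681 genes in the count table, were compared between BT549 cells sorted by flow cytometry for high surface NRP2 (NRP2-high) and for low surface NRP2 (NRP2-low). The members were taken by name: *CTGF*, *CYR61*, *NOV*, *WISP1* and *WISP2*, which are older names of *CCN2*, *CCN1*, *CCN3*, *CCN4* and *CCN5*, and *THBS1*, *THBS2*, *THBS3* and *THBS4*. BT549 is an established human TNBC (triple-negative breast cancer) cell line, and each population gave 2 libraries of polyadenylated RNA. Neither population carried a treatment or an introduced allele, the gates of the sort are not described in the sources used here, and no source says whether 2 libraries with one label came from 2 cultures, so the p-values cover only library-to-library spread, which may be technical. The series was designed to show how the transcriptomes of the 2 populations differ.

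CCN proteins and thrombospondins are matricellular proteins: they are secreted into the extracellular matrix, where they modulate adhesion, growth factor activity and protease activity more than they bear load. CCN proteins are built from modules that resemble parts of other secreted proteins, one of which is the type I repeat first described in thrombospondin, and they act through integrins and heparan sulfate proteoglycans. *CTGF* and *CYR61* are widely used readouts of the YAP and TAZ coactivators, which bind DNA through TEAD factors, and both also respond to serum, TGF-beta and actin tension. *THBS1* and *THBS2* encode trimeric thrombospondins that inhibit angiogenesis and bind the receptor CD36, whereas *THBS3* and *THBS4* encode pentameric thrombospondins that lack the type I repeats.

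Members of both families differed between NRP2-high and NRP2-low cells, some up and some down. *WISP1*, *THBS1*, *CTGF*, *CYR61* and *THBS3* were higher in NRP2-high cells, and *THBS2*, *WISP2*, *NOV* and *THBS4* were lower. The counts, which are sequenced fragments per gene, were tested with edgeR's quasi-likelihood test, and a gene was called at a Benjamini-Hochberg adjusted p under 0.05 over all 15083 genes tested. All 9 members were tested and all 9 were called, 5 higher and 4 lower. This count is to be read beside the whole table, in which 56.5% of the tested genes were called, 28.9% as higher and 27.7% as lower. The difference was over 2-fold for 6 members, 2 higher and 4 lower, where 16.3% of all tested genes were called with such a change (7.62% higher and 8.67% lower). *WISP1*, *WISP2* and *THBS2* changed most. In CPM (counts per 1e6 of the library after TMM scaling) the NRP2-high and NRP2-low libraries did not overlap for any of the 9 members, as for 78.2% of the tested genes. The median log2 fold change was 0.28 over the members and -0.01 over all tested genes. *WISP1* passed the filter on low counts through the NRP2-high libraries alone, so its call carries no weight. The other 8 members passed this filter in both NRP2-low libraries. Of these, *THBS4*, with 11 and 5 counts in NRP2-high cells, passed it in only 1 NRP2-high library, and the rest passed it in both.

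**Figure D1:**
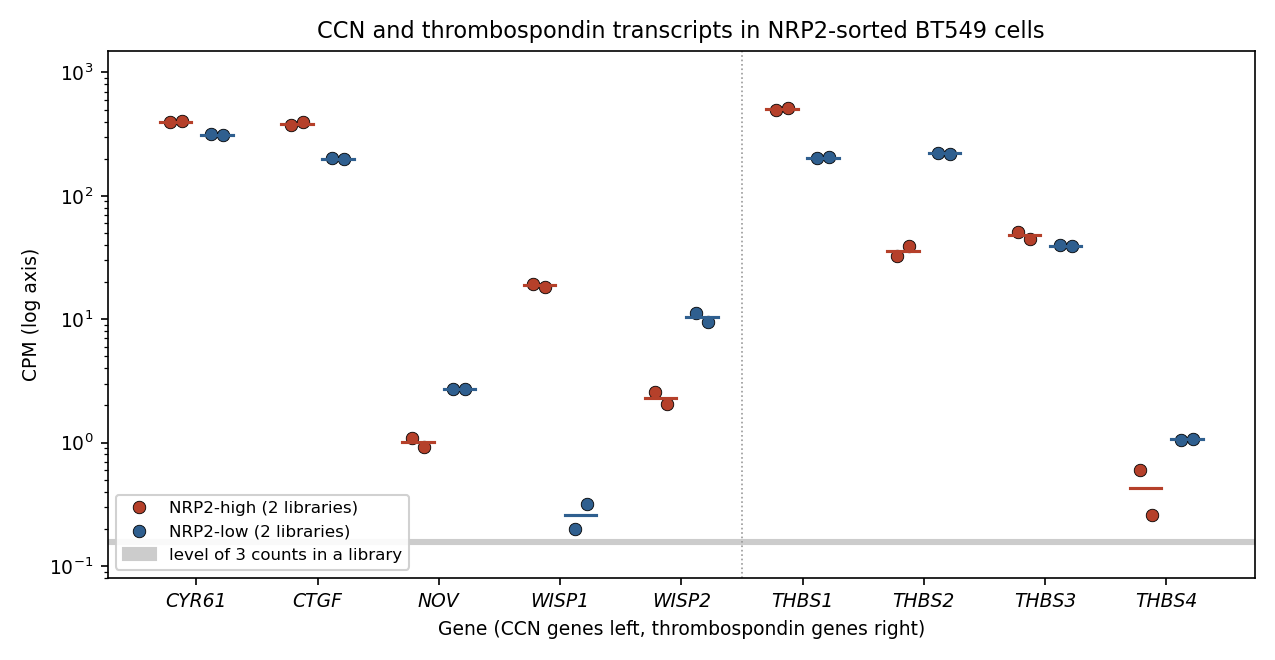
CPM of the 9 members on a log axis, with 1 point per library, a bar at the mean of each population (n = 2) and a grey band at the level of 3 counts in a library. The NRP2-high points lie above the NRP2-low points for *CYR61*, *CTGF*, *WISP1*, *THBS1* and *THBS3* and below them for *NOV*, *WISP2*, *THBS2* and *THBS4*, and *WISP1* in NRP2-low cells lies close to the level of 3 counts.

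The depth and identity of the libraries were checked on the same table. The libraries held 18165923 to 20585102 counts. A count of 0 is compatible with up to 3 counts, which stood for 0.151 to 0.163 CPM and cover counting error only. *NRP2* itself had 2588 and 2839 counts with high surface NRP2, against 195 and 166 with low. *VIM*, the mesenchymal intermediate filament gene that BT549 cells express, had 24106 and 27183 counts in NRP2-high cells, compared with 25640 and 23658 in NRP2-low cells, and did not pass the test. The mesenchymal cadherin gene *CDH2* had 1013 and 1117 counts in NRP2-high cells against 1663 and 1621 in NRP2-low cells and was lower (log2 fold change -0.59, edgeR adjusted p = 1.1e-05), and *ZEB1* (0.13) and *ERBB2* (-0.12) did not pass. The epithelial genes *EPCAM* and *CDH1* had at most 5 counts in any library, although summed over 5 epithelial genes the level was 12.1 and 14.4 CPM in NRP2-high cells against 6.78 and 6.80 CPM in NRP2-low cells. The 3 keratin genes, named after their values were seen, moved both ways: *KRT19* was higher in NRP2-high cells (205 and 266 counts, against 6 and 7 in NRP2-low cells), and *KRT8* (7 and 6 counts, against 50 and 43) and *KRT18* (8 and 5 counts, against 73 and 69) were lower, and each passed the filter on low counts only through the population where it was high. The 4 endothelial genes with a row summed to at most 0.774 CPM in an NRP2-high and 0.106 CPM in an NRP2-low library, and the 4 leukocyte genes to at most 0.567 CPM in an NRP2-high and 1.06 CPM in an NRP2-low library; none of these 8 genes passed the filter on low counts. *CDH5*, *CD3E*, *ESR1* and *PGR*, which were also listed as markers, matched no row by name and so were not analysed here. The part of other cells in the results was not tested, and in sorted bulk RNA fewer cells with a transcript and less transcript per cell cannot be told apart.

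Levels of different genes were compared in TPM, the authors' values per gene length scaled to 1e6 in each library. In NRP2-high cells *CTGF* was at 540 ± 18.4 TPM and *CYR61* at 538 ± 33.4 TPM (SD, n = 2 here and below), and the libraries of these 2 genes overlapped. *THBS1* followed at 182 ± 7.88 TPM, *THBS3* at 34.3 ± 5.92, *THBS2* at 18.4 ± 0.896, *WISP1* at 12.0 ± 1.40, *WISP2* at 1.54 ± 0.345, *NOV* at 1.25 ± 0.232 and *THBS4* at 0.314 ± 0.196 TPM. Besides *CTGF* and *CYR61*, the only neighbours in this order whose libraries overlapped were *WISP2* and *NOV*. In NRP2-low cells the order was *CYR61* at 469.7 ± 9.35 TPM, *CTGF* at 314 ± 6.20, *THBS2* at 127 ± 2.54, *THBS1* at 81.8 ± 1.41, *THBS3* at 31.3 ± 0.662, *WISP2* at 7.68 ± 0.885, *NOV* at 3.73 ± 0.00495, *THBS4* at 0.845 ± 0.00388 and *WISP1* at 0.184 ± 0.0589 TPM, with no overlap between neighbours. *THBS2* thus stood above *THBS1* in NRP2-low cells and below both *THBS1* and *THBS3* in NRP2-high cells.

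*THBS1* encodes thrombospondin 1, which activates latent TGF-beta and binds CD47 and CD36, and lies on the plus strand of chromosome 15 (hg38, 39581079 to 39599466). It had 9074 and 9990 counts in NRP2-high cells, against 4007 and 3885 counts in NRP2-low cells. These were 494 and 515 CPM in NRP2-high cells, compared with 201 and 206 CPM in NRP2-low cells, a gap many times the spread between libraries of a population. The fitted difference was 2.48-fold, a log2 fold change of 1.31 (95% confidence interval 1.20 to 1.42, edgeR adjusted p = 5.2e-09).

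*THBS2*, whose product thrombospondin 2 shares its domain plan with thrombospondin 1 and is known in mice for roles in collagen fibril assembly, moved the other way. It lies on the minus strand of chromosome 6 (169215780 to 169254044) and had 603 and 756 counts in NRP2-high cells, against 4460 and 4102 in NRP2-low cells. In CPM this was 32.8 and 39.0 in NRP2-high cells, compared with 224 and 218 in NRP2-low cells. Both NRP2-high libraries were far below both NRP2-low libraries, with a log2 fold change of -2.62 (interval -2.79 to -2.45, edgeR adjusted p = 6.4e-10), which corresponds to a level 6.15-fold higher in NRP2-low cells. Of all 15083 tested genes, 96.2% changed by less than *THBS2*, in either direction.

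The make-up of the thrombospondin transcripts differed between the populations, while the difference of their sum depended on the scaling. The summed level of the 4 thrombospondin genes was 244 and 226 TPM in NRP2-high cells, compared with 242 and 239 TPM in NRP2-low cells, so that the populations overlapped. With the TMM scaling of the counts, an alternative chosen after seeing the data, the sum was 70.2 and 72.0 CPM per kb of gene length in NRP2-high cells against 65.8 and 65.2 in NRP2-low cells, and in CPM without regard to length 578 and 599 against 466 and 464, both without overlap. *THBS1* made up 76.8% and 78.1% of the TPM sum in NRP2-high cells, against 33.4% and 34.6% in NRP2-low cells. *THBS2* made up 7.29% and 8.45% in NRP2-high cells, against 53.1% and 52.2% in NRP2-low cells. The TPM ratio of *THBS1* over *THBS2* was 10.5 and 9.25 in NRP2-high cells, compared with 0.629 and 0.663 in NRP2-low cells. These sums, shares and ratios were not tested.

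*THBS3* and *THBS4*, the genes of the pentameric thrombospondins, differed less firmly. *THBS3* (chromosome 1, 155195588 to 155209051, minus strand) had 940 and 861 counts in NRP2-high cells, against 796 and 731 in NRP2-low cells. In CPM it was at 51.2 and 44.4 in NRP2-high cells, compared with 40.0 and 38.8 in NRP2-low cells, and in TPM at 38.5 and 30.1 in NRP2-high against 31.8 and 30.8 in NRP2-low cells, where the populations overlapped. Its log2 fold change of 0.28 (interval 0.10 to 0.46) passed the test (edgeR adjusted p = 0.014), but the call was lost without NRP2-low replicate 1 (0.29, adjusted p = 0.081) and without NRP2-low replicate 2 (0.26, adjusted p = 0.12). It was also lost with limma in log2(TPM + 1) and log2(TPM + 0.1) (0.12 and adjusted p = 0.48 in both) and in log2(FPKM + 1) (0.15, adjusted p = 0.23). *THBS4* (chromosome 5, 79991311 to 80083287, plus strand) had only 11 and 5 counts in NRP2-high cells, compared with 21 and 20 in NRP2-low cells. The log2 fold change was -1.31 with a wide interval of -2.27 to -0.35 (edgeR adjusted p = 0.025). Its call was lost in DESeq2 (adjusted p = 0.17) and without NRP2-high replicate 2 (-0.82, adjusted p = 0.15), NRP2-low replicate 1 (-1.32, adjusted p = 0.088) or NRP2-low replicate 2 (-1.30, adjusted p = 0.096).

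*CTGF* encodes connective tissue growth factor and lies on the minus strand of chromosome 6 (131948176 to 131951373). It had 6835 and 7625 counts in NRP2-high cells, against 4032 and 3710 in NRP2-low cells. These were 372 and 393 CPM in NRP2-high cells, compared with 202 and 197 CPM in NRP2-low cells, well apart in every library. The fitted difference was 1.92-fold, a log2 fold change of 0.94 (interval 0.82 to 1.05, edgeR adjusted p = 7.6e-08).

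*CYR61*, the gene of the angiogenic cysteine-rich protein CCN1 (chromosome 1, 85580761 to 85583962, plus strand), had 7286 and 7812 counts in NRP2-high cells, against 6334 and 5827 in NRP2-low cells. In CPM it was at 397 and 403 in NRP2-high cells, compared with 318 and 310 in NRP2-low cells. The fitted log2 fold change was 0.35 (interval 0.24 to 0.46, edgeR adjusted p = 1.0e-04), a 1.27-fold difference, and 45.9% of tested genes changed by less. In log2(TPM + 1) it was 0.20 with limma, past no threshold (adjusted p = 0.065). In that unit the median of all tested genes was -0.14, and *CYR61* stood 0.33 above it. The intervals of *CTGF* and *CYR61* did not meet, and the TPM ratio of *CTGF* over *CYR61* was 0.985 and 1.02 in NRP2-high cells against 0.668 in both NRP2-low libraries. The difference between the 2 changes was not tested.

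*WISP1* and *WISP2*, named for their induction by WNT1 in mouse mammary cells, were low in one population each. *WISP1* (chromosome 8, 133191039 to 133228360, plus strand) had 356 and 353 counts in NRP2-high cells, against 4 and 6 in NRP2-low cells. In CPM this was 19.4 and 18.2 in NRP2-high cells, compared with 0.201 and 0.319 in NRP2-low cells, where it was close to the level of 3 counts. The log2 fold change was 6.15 (interval 5.66 to 6.64, edgeR adjusted p = 3.2e-09), about 71.0-fold. By increase, *WISP1* ranked 39 among all tested genes. It passed the filter on low counts only through the NRP2-high libraries, so this call and rank carry no weight. The size of the fold rests on 4 and 6 counts in NRP2-low cells. *WISP2* (chromosome 20, 44714844 to 44727811, plus strand), whose product lacks the C-terminal module of the other CCN proteins, had 47 and 40 counts in NRP2-high cells, against 224 and 180 in NRP2-low cells. In CPM it was at 2.56 and 2.06 in NRP2-high cells, compared with 11.2 and 9.57 in NRP2-low cells. The log2 fold change was -2.17 (interval -2.57 to -1.77, edgeR adjusted p = 2.0e-06).

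*NOV* (chromosome 8, 119416306 to 119424353, plus strand) encodes CCN3, which is known to oppose fibrogenic actions of CTGF in kidney cells. It had 20 and 18 counts in NRP2-high cells, against 54 and 51 in NRP2-low cells, which were 1.09 and 0.928 CPM in NRP2-high cells against 2.71 CPM in each NRP2-low library. The log2 fold change was -1.42 (interval -2.01 to -0.84, edgeR adjusted p = 0.00082). Among the CCN genes the more abundant pair, *CTGF* and *CYR61*, made up nearly all of the summed TPM in every library, and *CTGF* took 48.9% and 49.96% of it in NRP2-high cells against 39.4% and 39.5% in NRP2-low cells. The sum of the 5 CCN genes was 1132 and 1056 TPM in NRP2-high cells, compared with 807 and 784 TPM in NRP2-low cells, with no overlap. The remaining relatives were near the limit of detection and were not tested: *WISP3*, which encodes CCN6, had 12 and 10 counts in NRP2-high libraries against 0 and 9 in NRP2-low libraries, and *COMP*, which encodes the cartilage thrombospondin, had 2 and 4 in NRP2-high libraries against 9 and 12 in NRP2-low libraries.

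**Figure D2:**
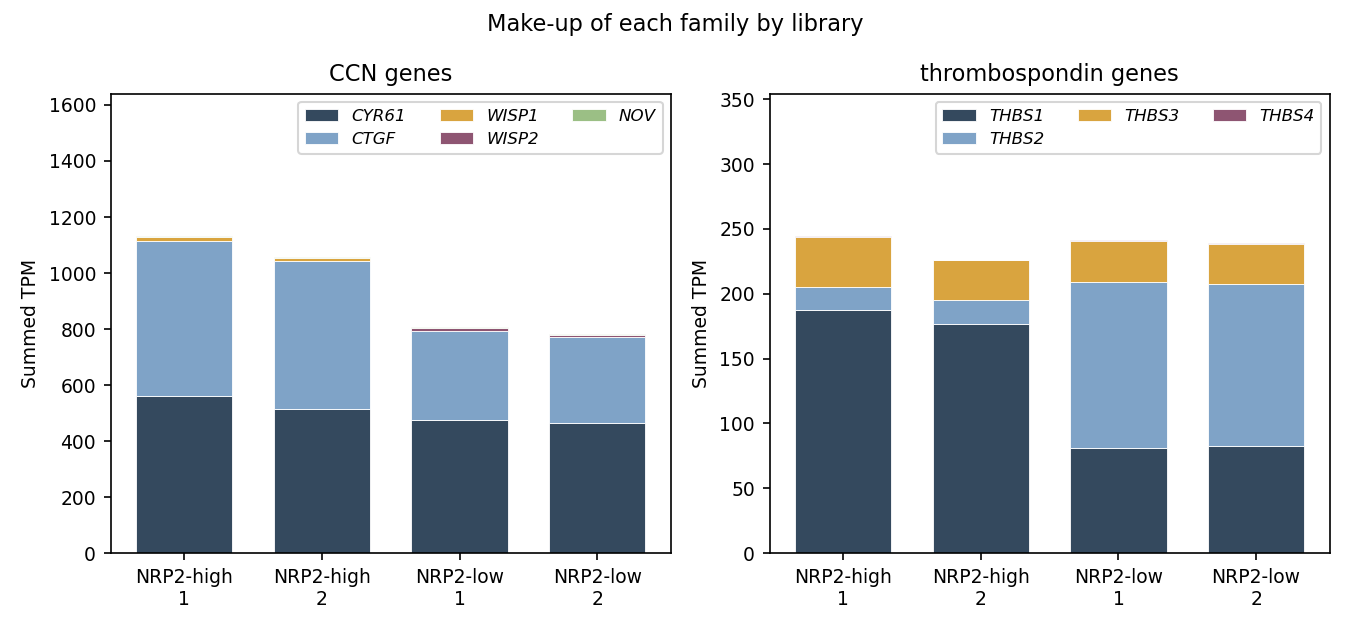
TPM of the 5 CCN genes (left) and the 4 thrombospondin genes (right), stacked by gene, with 1 bar per library and no error bars. The bars of *THBS1* and *THBS2* trade places between NRP2-high and NRP2-low libraries, at sums of 226 to 244 TPM that overlap in this unit but not after TMM scaling, while the CCN bars are taller in NRP2-high libraries; *NOV*, *WISP2*, *WISP1* and *THBS4* are too low to be seen well at this scale.

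**Figure D3:**
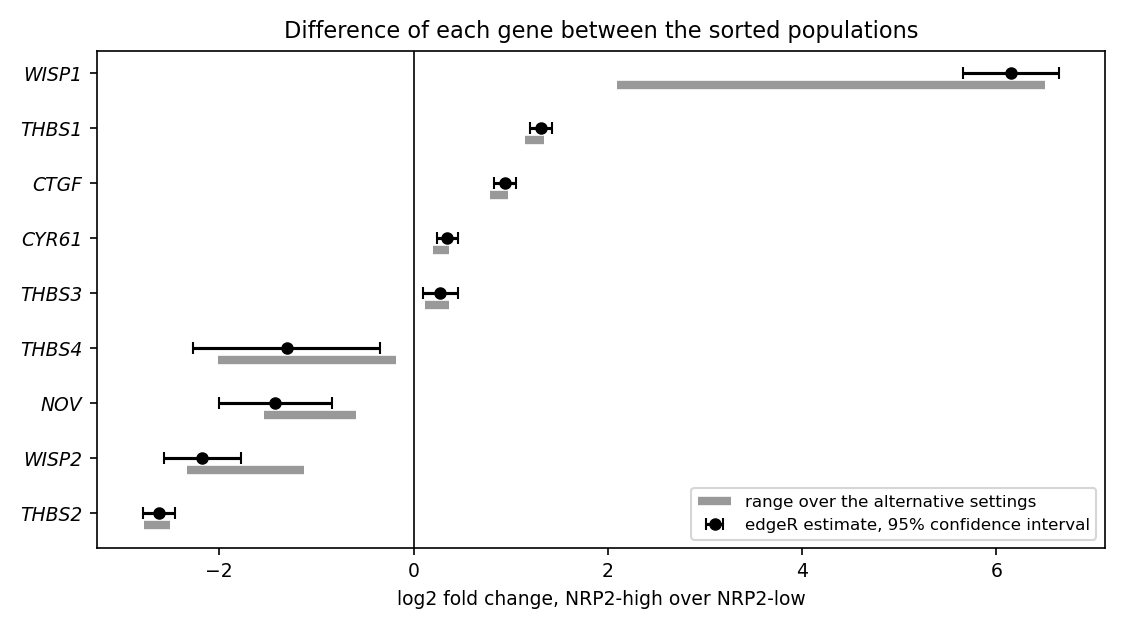
Log2 fold change of each member, NRP2-high over NRP2-low, as the edgeR estimate with its 95% confidence interval (black) and as the range over the alternative settings (grey). *WISP1* (6.15) and *THBS2* (-2.62) mark the ends, and no grey range crosses 0.

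The promoters of *CTGF*, *THBS1* and *THBS2* are shown because these are the abundant members that changed most, in opposite directions, and because TEAD factors bind the *CTGF* promoter in many cell types. The windows searched were the 250 bases before the transcript start in RefSeq (GRCh38.p14, an assembly with the chromosome coordinates of hg38), written 5′ to 3′ on the strand of the gene. *CTGF* (chr6:131951373-131951622, minus strand) and *THBS1* (chr15:39580829-39581078, plus strand) are shown whole. Of the *THBS2* window, 111 bases are exons of *THBS2* transcripts that start further upstream in GENCODE, and the 93 bases shown (chr6:169253897-169253989, minus strand) lie between those exons. Capitals mark the TEAD motif GGAATG on either strand.
CTGF: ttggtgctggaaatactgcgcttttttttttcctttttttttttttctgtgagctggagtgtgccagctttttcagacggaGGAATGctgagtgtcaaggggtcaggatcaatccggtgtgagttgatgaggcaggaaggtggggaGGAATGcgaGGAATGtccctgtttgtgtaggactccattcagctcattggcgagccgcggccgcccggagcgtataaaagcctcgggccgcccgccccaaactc
THBS1: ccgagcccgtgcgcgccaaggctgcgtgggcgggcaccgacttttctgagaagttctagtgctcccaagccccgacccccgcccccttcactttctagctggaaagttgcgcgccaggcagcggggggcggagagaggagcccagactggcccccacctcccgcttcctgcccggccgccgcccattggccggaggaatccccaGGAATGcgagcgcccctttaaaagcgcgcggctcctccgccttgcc
THBS2: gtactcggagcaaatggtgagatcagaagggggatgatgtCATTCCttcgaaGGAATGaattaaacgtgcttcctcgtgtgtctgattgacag

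The motif GGAATG occurred 3 times before *CTGF*, from 169 to 164, 104 to 99 and 95 to 90 bases upstream of the start. It occurred 1 time before *THBS1*, from 46 to 41 bases upstream, and 2 times before *THBS2*, from 103 to 98 bases upstream on the opposite strand and from 91 to 86 bases upstream. Of 35114 promoter windows of this length in the table, 11.9% held the motif at least once on either strand. The 2 windows each of *THBS3* and *THBS4* held none. The AP-1 motif TGANTCA, present in 6.6% of all windows, and the CArG box of SRF, present in 1.2%, were found in none of the 7 windows of these 5 genes, on either strand. *CYR61*, *NOV*, *WISP1* and *WISP2* had no row in the promoter table. A match is a description of the letters, found before genes that rose (*CTGF* and *THBS1*) and before 1 that fell (*THBS2*).

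Genes annotated over the members were examined because the libraries were stranded but the strand setting of the counting is not stated. A sense-intronic transcript inside *THBS1*, *AC037198.1*, had 22 and 26 counts in NRP2-high cells against 4 and 6 in NRP2-low cells, and was called higher (edgeR adjusted p = 0.00087). *BX322234.1*, antisense to *THBS2*, had 5 and 2 counts in NRP2-high cells against 13 and 12 in NRP2-low cells, and was called lower (edgeR adjusted p = 0.018). Both passed the filter on low counts only through the population where they were high, so these calls carry no weight. *MTX1*, which shares 353 bases with *THBS3* on the other strand, had 239 and 198 counts in NRP2-high cells against 340 and 260 in NRP2-low cells, and fell (edgeR adjusted p = 0.030) where *THBS3* rose. A processed pseudogene on the strand of *THBS4*, *AC112184.1*, had 1 and 3 counts in NRP2-high cells against 15 and 8 in NRP2-low cells and was not tested. *FSIP1*, which overlaps *THBS1* on the other strand, had 3 and 10 counts in NRP2-high cells against 12 and 11 in NRP2-low cells, and *AC234582.1*, antisense to *THBS3*, had 36 and 34 against 52 and 43, and neither passed the test. The antisense genes *AL133346.1* over *CTGF* and *KCNK15-AS1* over *WISP2* had at most 7 counts in any library, and *CTD-2201I18.1*, antisense to *THBS4*, had 0 in all 4. The part of these neighbours in the members' counts was not tested.

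The receptors through which the 2 families act moved in both directions as well. Of 22 receptor genes listed, 18 were tested: 9 rose, 5 fell and 4 did not pass the test, with a median log2 fold change of 0.37. This and the list counts below are to be read beside all tested genes, of which 28.9% were called higher and 27.7% lower. *ITGA6*, the integrin subunit that with beta 1 binds CYR61 and CTGF, had 6286 and 6906 counts in NRP2-high cells against 2033 and 1894 in NRP2-low cells. The log2 fold change was 1.78 (edgeR adjusted p = 6.5e-10). *CACNA2D1*, a calcium channel subunit that binds thrombospondins in rodent neurons, had a log2 fold change of 1.44, and the collagen-binding integrin subunit *ITGA2* had 2.57. *ITGA3*, a laminin-binding integrin subunit that also binds THBS1, had 3498 and 3301 counts in NRP2-high cells against 7137 and 6862 in NRP2-low cells, and was lower (edgeR adjusted p = 1.4e-07). *CD47*, the receptor of the THBS1 C-terminal region, was lower by a small amount (log2 fold change -0.21, edgeR adjusted p = 0.0065), and *CD36* had 2 and 3 counts in NRP2-high cells, compared with 6 and 3 in NRP2-low cells, and was not tested. *CD47* and *CD36* were named after their values were seen, as were *TGFB2* and *TGFB3* below.

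Enzymes that cut, modify or fold matrix glycoproteins also moved both ways. Of 14 listed, 12 were tested, with 7 higher, 4 lower and 1 not passing (median log2 fold change 0.32). *MMP2*, a gelatinase that cleaves CTGF in vitro, had 2903 and 3422 counts in NRP2-high cells against 181 and 179 in NRP2-low cells (log2 fold change 4.17). *MMP14* had 2.07 and the collagen chaperone gene *SERPINH1* had 1.02. *ADAMTS7*, which encodes a protease that degrades COMP and THBS1, had 73 and 63 counts in NRP2-high cells against 509 and 497 in NRP2-low cells (log2 fold change -2.85).

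Genes regulated by the same coactivators as *CTGF* and *CYR61* did not share one direction. Of 20 YAP and TAZ target genes other than the members, 19 were tested, with 9 higher, 5 lower and 5 not passing (median log2 fold change 0.23). The coagulation initiator gene *F3* had a log2 fold change of 1.49, the phosphatase gene *PTPN14* 0.99 and the guanine nucleotide exchange factor gene *DOCK5* 0.78, whereas *IGFBP3*, which encodes an IGF binding protein, had 1253 and 1374 counts in NRP2-high cells against 8744 and 8405 in NRP2-low cells (log2 fold change -2.67). Of 19 genes of the Hippo pathway and the TEAD factors, 7 were higher, 7 lower and 5 not passing (median log2 fold change 0.07). *YAP1* had a log2 fold change of 0.49 and *NF2*, an upstream activator of the Hippo kinases, 0.48 (0.32 and no call in log2(TPM + 1)), while the TEAD cofactor gene *VGLL3* had -0.89 and *AMOTL1*, whose product binds YAP, had -0.65.

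Of 15 genes of SRF and its MRTF coactivators, with targets, 13 were tested. Where 28.9% of all tested genes were called higher and 27.7% lower, 11 of these 13 were higher and 2 did not pass (median log2 fold change 0.90). This list, like the others, was chosen with earlier results of these data known, so its counts only describe the genes listed. The 2 that did not pass, named after their values were seen, were the actin crosslinker gene *FLNA* (-0.11) and the coactivator gene *MYOCD* (0.23). *FLNA* was at 3310 and 2896 CPM in NRP2-high cells against 3328 and 3351 CPM in NRP2-low cells. Without NRP2-high replicate 1, which left 1 NRP2-high library, its log2 fold change was -0.21. *ACTA2*, which encodes smooth-muscle actin, had 2264 and 2519 counts in NRP2-high cells against 57 and 52 in NRP2-low cells (log2 fold change 5.49). *MYL9* had 2.30, *CALD1* 2.16 and *TPM1* 1.61, and all 4 encode parts of the contractile actin machinery.

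TGF-beta genes, which THBS1 protein meets in the matrix, were split. Of 19 listed, 18 were tested, with 6 higher, 9 lower and 3 not passing (median log2 fold change -0.16). *TGFB1* had 441 and 478 counts in NRP2-high cells against 1412 and 1408 in NRP2-low cells (log2 fold change -1.58), and the latent TGF-beta binding protein genes *LTBP3* and *LTBP1* had -1.92 and -1.08. *TGFBR2*, the type II receptor gene, had 1.10, and the other ligand genes *TGFB2* and *TGFB3* had 1.42 and 2.76.

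*CTGF*, *CYR61* and *THBS1* are also induced within an hour or so of serum or stress, so immediate early genes were listed. Of 18 tested, 3 were higher, 9 lower and 6 not passing (median log2 fold change -0.31). *EGR3*, an early growth response factor, had 89 and 89 counts in NRP2-high cells against 4 and 8 in NRP2-low cells (log2 fold change 3.90), and *DUSP1*, a MAP kinase phosphatase gene, had 0.90. *EGR3* passed the filter on low counts only through the NRP2-high libraries. *EGR2*, the other gene called higher, passed through these and NRP2-low replicate 2, where its 10 counts were close to the filter limit. The stress-induced *ATF3* had -1.63 and the ERK phosphatase gene *DUSP5* had -0.73. The part of handling during the sort in these values was not tested. All tests in the paragraphs on gene lists are the edgeR fit given above. In this fit 56.5% of tested genes were called, 28.9% as higher and 27.7% as lower, and no list was tested as a set.

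**Figure D4:**
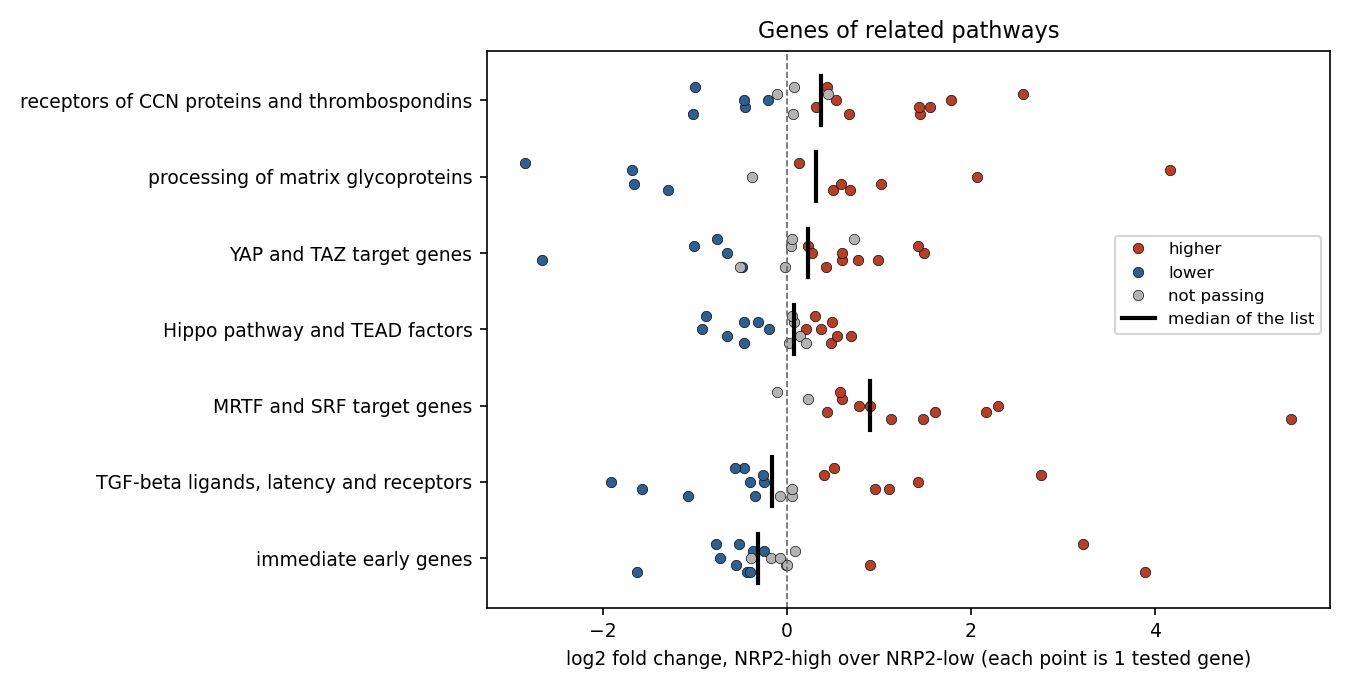
Log2 fold change, NRP2-high over NRP2-low, of each tested gene in 7 lists, with called genes in red (higher) or blue (lower), genes not passing in grey and the median of each list as a black bar. The MRTF and SRF list has its median at 0.90 and its 11 called genes above 0, while the others hold called genes on both sides. All lists were chosen with earlier results of these data known.

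*CYR61* had the highest mean TPM of the 9 members over all 4 libraries, although *CTGF* was level with it in NRP2-high cells. The 3 tested genes with the closest pattern, leaving out clone, antisense and LINC names, by Euclidean distance of centred log2 CPM over the 4 libraries, were *ANKMY2* (distance 0.0115), *FAM98B* (0.0174) and *VKORC1L1* (0.0188). With 4 libraries and 2 groups such a likeness is common: 1896 other genes lay within a distance of 0.2.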

How the data were processed

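RNA of 4 libraries of sorted BT549 cells was analysed, 2 per population. The authors used STAR 2.5.3a for alignment to hg38 and featureCounts 1.5.2 for counts per gene, keeping alignments of a mapping quality above 20, and the counts were deposited without normalization. The deposited TPM and FPKM values equal these counts scaled by the gene length and library, which was checked on the values, and the annotation release is not given in the sources used here. The counts were tested with edgeR 4.0.16 (R 4.3.3), using the quasi-likelihood test after TMM scaling and filterByExpr and with no covariate, with DESeq2 1.42.0 and limma 3.58.1 (log2 TPM with pseudocounts of 1 and 0.1, log2 FPKM with 1) among the alternatives. Standard deviations are over 2 libraries. Fold changes in TPM or FPKM are on the log2(value + pseudocount) scale, which understates changes of low genes.

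The members and gene lists were chosen with earlier results of these data known. The rule for named genes took all members, the untested relatives, genes annotated over a member, the 4 called genes with the smallest adjusted p and no overlap between the groups in each list, *NRP2*, and the 3 genes nearest in pattern to the most abundant member. Scripts were tested on simulated counts, as a check of the scripts only. Of 50 genes changed 1.25-fold, edgeR called 38%, of 50 at 1.5-fold 76%, of 50 at 2-fold 92% and of 50 at 4-fold 100%. There were 8 false calls, counted over the genes left unchanged, in a fit of 14767 genes. In the data 56.5% of tested genes were called, a far larger share than was changed in the simulation. The rate of missed or false calls in the data was not tested.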

Additional observations from a re-analysis of the deposited data

How the results depend on the processing

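Over 13 alternatives, tried 1 at a time, no member changed its direction, and *CTGF*, *NOV*, *WISP2*, *THBS1* and *THBS2* kept their calls in each. *WISP1* was also called in each, but it passed the filter on low counts only through the NRP2-high libraries, so its calls carry no weight. In DESeq2 *THBS4* had a log2 fold change of -1.31 and lost its call; without 1 library at a time it ran from -2.01 to -0.82, and *THBS3* from 0.17 to 0.37. In log2(TPM + 1) and log2(TPM + 0.1), 3 members were called higher in place of 5, since *CYR61* (0.20 and 0.20) and *THBS3* (0.12 and 0.12) did not pass, and *THBS3* (0.15) also lost its call in log2(FPKM + 1). Genes called higher numbered 2594 and 2556 in the 2 TPM settings in place of 4354, which made 35.9% and 36.0% of the calls in place of 51.0%. The TPM columns carry no TMM scaling, their median log2 fold change over tested genes was -0.14 and -0.16, and relative to it *THBS3* stood at 0.25 and 0.28. Mitochondrial genes held 6.92% and 9.16% of NRP2-high and 5.57% and 5.85% of NRP2-low counts, and without them and the 10 most abundant genes the members' calls were 5 higher and 4 lower. *THBS4* had too few counts for the filter of 50 counts in 2 libraries. In log2(FPKM + 1), where the pseudocount weighs on low genes, *WISP1* had 2.09, *WISP2* -1.13, *NOV* -0.59 and *THBS4* -0.18.

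No label says whether same-numbered libraries belong together. Their deviations had a correlation of -0.01 across genes, which cannot settle whether they share a culture or a sort. With the replicate block 4509 genes were called higher and 4371 lower, against 4354 and 4175 without it, and the block changed no member's call (5 higher and 4 lower).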
